A study of Mus musculus with 352 samples.

Results

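The daily rhythms of gene expression in skeletal muscle were compared at 10 weeks between mice in which the clock gene Bmal1 was restored in brain and muscle and wild-type mice. The comparison used 47 libraries, chosen by their labels, and the study holds 305 others. The RE-RE group held 24 mice that carried Bmal1(stopFL/stopFL), Syt10-Cre(-/tg) and Hsa-Cre(-/tg). The WT group held 23 wild-type mice. All 47 mice were C57BL/6, aged 10 to 12 weeks and fed ad libitum. Whole tibialis anterior muscle was taken at 6 zeitgeber times (ZT) 4 h apart, and total RNA was sequenced. Each time held 2 females and 2 males of each genotype, except that 3 WT mice, 2 females and 1 male, were present at ZT 0. RE-RE and WT mice of 26 weeks, 24 and 22 other animals on the same diet, served to choose rhythmic genes and their peak times independently of the 10 week mice. For a few genes, amplitudes are also given in KO and Br-RE mice of both sexes, aged 10 to 12 weeks and fed ad libitum. KO mice carried Bmal1(stopFL/stopFL) without Cre, and Br-RE mice carried Syt10-Cre alone.

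Bmal1, listed by its symbol Arntl, encodes a transcription factor that pairs with CLOCK or NPAS2 and drives genes carrying E-boxes, among them the Per, Cry and Nr1d genes. The PER and CRY proteins block this pair, and the nuclear receptors NR1D1 and NR1D2 repress Arntl itself, so that the loop completes a turn in about a day. DBP, TEF, HLF and NFIL3 pass the rhythm on to genes carrying D-boxes. In the stopFL allele a stop cassette silences Bmal1 until Cre removes it. Syt10-Cre acts in the suprachiasmatic nucleus and other brain regions, and Hsa-Cre uses the skeletal actin promoter and acts in muscle fibres. The labels give no driver for the vessel, blood, nerve, fat and connective cells that whole muscle also holds, nor for other organs. In whole muscle, fewer cells of a type and less RNA per cell cannot be told apart.

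The values were log2 FPKM (fragments per kilobase and mega-read) by the authors, and 9862 of 14413 genes with a mean of at least 0, equal to 1 FPKM, were tested. RE-RE and WT libraries belong to sets that the table centres separately, as described with the levels below, so that a constant per gene can lie between the genotypes. At which times the genotypes overlap depends on this constant, while amplitudes and peak times do not. The recovered depth was 19.1 to 36.2 mega-reads in RE-RE libraries, with a median of 23.2, and 17.3 to 47.8 mega-reads in WT libraries, with a median of 22.4. The label of the tissue held, since the muscle fibre markers averaged 9.84 ± 0.18 log2 FPKM in RE-RE and 9.79 ± 0.14 in WT (SD, n = 24 and 23). Macrophage and lymphoid markers averaged 1.47 ± 0.62 in RE-RE and 2.12 ± 0.44 in WT, and nerve and Schwann markers 1.90 ± 0.67 and 1.48 ± 0.47. Fibroblast markers averaged 4.20 ± 0.64 in RE-RE and 4.44 ± 0.53 in WT. Of the libraries, 4 stood apart in their spread around the fitted rhythm, which was 0.593, 0.562 and 0.413 log2 in RE-RE replicates 1, 13 and 19 and 0.433 in WT replicate 1, against medians of 0.279 in RE-RE and 0.292 in WT. RE-RE replicate 1 also had the lowest muscle fibre markers of the 24 RE-RE libraries, 9.24, and the highest fibroblast markers, 5.26. The part of these libraries in the results below was measured by leaving them out, and values without them are given where they move a count.

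A 24 h cosine was fitted to each gene, and its amplitude, the distance from the daily mean to the peak in log2 units, and its peak time were compared. The 4 clock lists held 19 genes, of which 16 passed the filter. A rhythm was called (limma, adjusted p under 0.05) for 7 of the 16 in RE-RE, Arntl, Nr1d1, Nr1d2, Per2, Per3, Nfil3 and Dbp, against 0.588% of all genes. In WT it was called for 14, among them the same 7 and Clock, Cry1, Cry2, Per1, Bhlhe41 and Tef, against 5.84% of all genes. The amplitude was lower in RE-RE than in WT in 12 of the 16, as it was in 6765 of all 9862 genes. No clock gene passed the adjusted test of a difference in rhythm, nor did any other gene (limma, 0 of 9862, 0% of genes). With weights per library 30 genes passed, none of them on the clock lists. At an unadjusted p under 0.05 the rhythm differed in 5 of the 16 clock genes, against 341 genes or 3.46% of all.

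Because a fitted amplitude is never negative and grows with noise, the genotypes were also compared along the peak time that each gene had at 26 weeks, which gives a signed difference. A shared rhythm was called at 26 weeks in 381 of all 9862 genes and in 14 of the 16 clock genes. For the other genes this axis does not rest on a called rhythm. Along this axis 6 of the 16 clock genes were lower in RE-RE at an unadjusted p under 0.05, among them Arntl, Per2, Per3, Cry1 and Tef, and 0 were higher. Over all genes 350, or 3.55%, passed this limit, and 234, or 2.37%, did so with a lower value in RE-RE. The other 116 were higher in RE-RE. None of the 6 passed adjustment over all genes. Without RE-RE replicates 1 and 13 the rhythm was called in 10 clock genes in RE-RE and 14 in WT, and along the axis 6 clock genes were lower and 0 higher, against 292 lower and 256 higher of all genes. Without RE-RE replicates 1, 13 and 19 and WT replicate 1 it was called in 13 clock genes in each genotype, and along the axis 5 clock genes were lower and 0 higher at an unadjusted p under 0.05. Of all genes 295 were then lower and 400 higher, so that the genome-wide balance turned while no clock gene was higher past this limit.

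**Figure D1:**
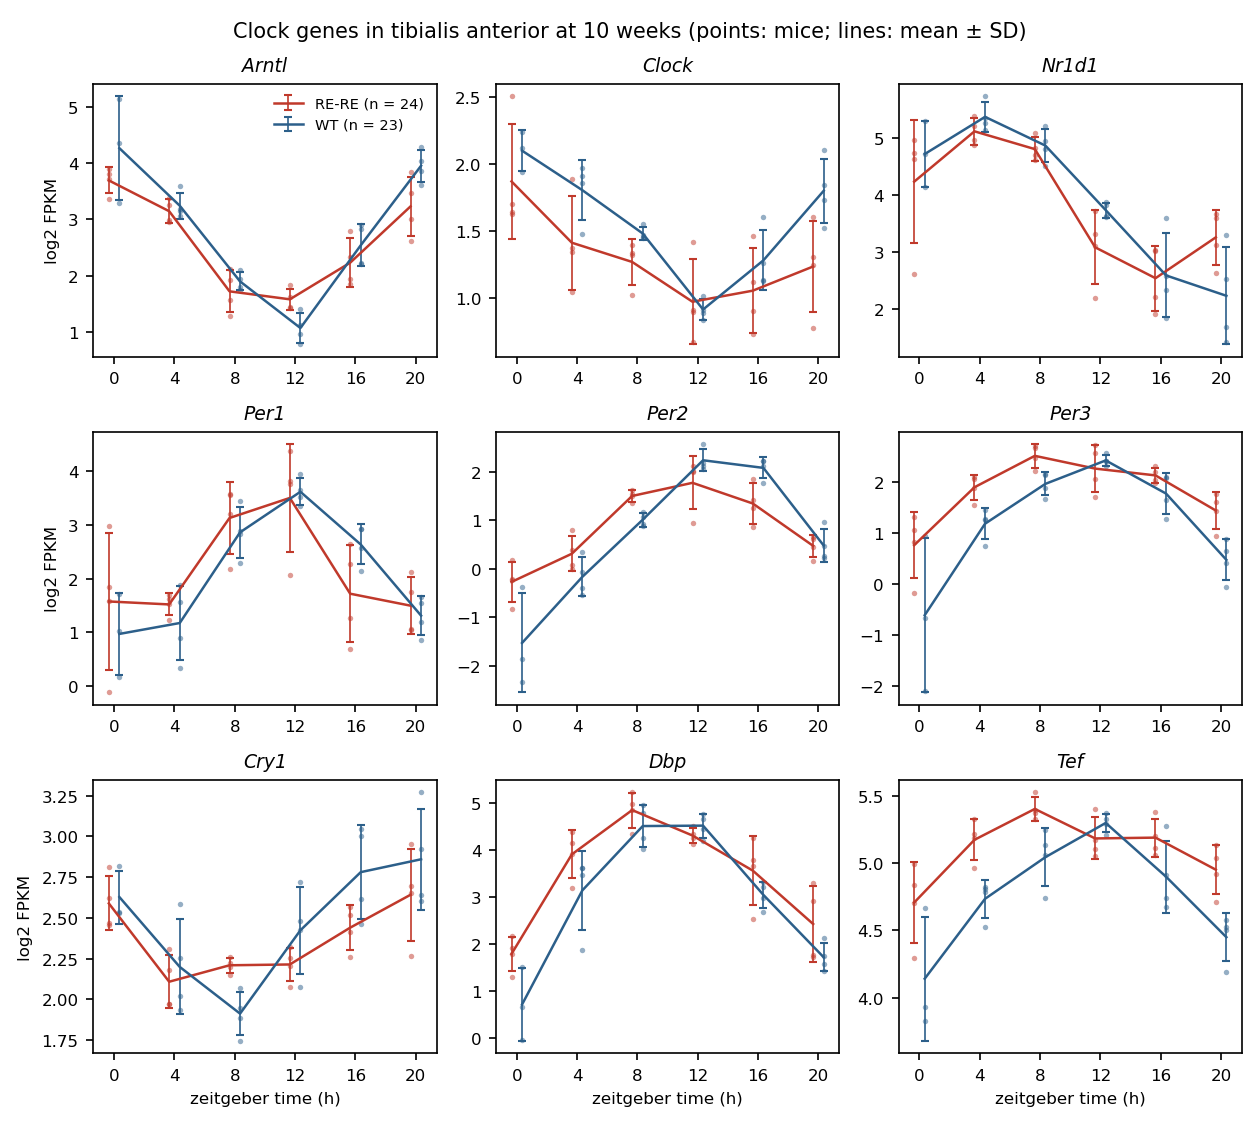
Log2 FPKM of 9 clock genes in tibialis anterior at 10 weeks against zeitgeber time in h, with points for mice and lines for the mean ± SD of RE-RE (red, n = 24) and WT (blue, n = 23). The profiles rise and fall together in both genotypes, and on the scale of the table the trough of Per2 and Per3 at ZT 0 is deeper on average in WT.

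Among the activators, Arntl (chr7:113207465-113314126, GRCm38) is the gene that the stop cassette silences and Cre restores. Its 4 RE-RE mice had 3.36, 3.71, 3.80 and 3.89 log2 FPKM at ZT 0, against 3.29, 4.36 and 5.14 in the 3 WT mice. At ZT 12 the RE-RE mice had 1.43, 1.44, 1.61 and 1.84, against 0.78, 0.96, 1.13 and 1.40 in WT. On the scale of the table the genotypes overlapped at ZT 0 and did not overlap at ZT 12, where every RE-RE mouse was higher. The amplitude was 1.12 ± 0.10 in RE-RE and 1.57 ± 0.11 in WT (SE), a 4.73-fold and an 8.82-fold swing between trough and peak. Along the 26 week peak time the difference was -0.45 (95% interval -0.75 to -0.15, adjusted p = 0.795, limma). The peak fell at ZT 23.4 in RE-RE and ZT 23 in WT. At 26 weeks the amplitudes were 1.0 ± 0.10 and 1.08 ± 0.12 with peaks at ZT 22.4 and ZT 0.2, so that the amplitudes of the genotypes lay within their errors there, while the rhythm differed at an unadjusted p of 0.00944 (limma, adjusted p = 0.999).

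Clock, the usual partner of ARNTL, had an amplitude of 0.37 ± 0.09 in RE-RE (adjusted p = 0.181, limma) and 0.54 ± 0.06 in WT. At ZT 8 its 4 RE-RE mice had 1.02, 1.32, 1.34 and 1.40 log2 FPKM, against 1.45, 1.46, 1.47 and 1.55 in WT, with no overlap on the scale of the table. At ZT 12 the RE-RE mice had 0.67, 0.89, 0.91 and 1.42, against 0.83, 0.89, 0.91 and 1.02 in WT, with an overlap.

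Npas2 (chr1:39193731-39363236, GRCm38), the paralogue of Clock that can take its place beside ARNTL, was below the filter, with a mean of -0.35 log2 FPKM over all libraries, and was examined in a fit of all 14413 genes. It was the only clock gene past the adjusted test in that fit. At ZT 12 the 4 RE-RE mice had -1.22, 0.11, 0.25 and 0.47 log2 FPKM, against -3.52, -2.72, -2.68 and -2.33 in WT. At ZT 0 the RE-RE mice had -0.24, 0.05, 0.30 and 0.56, against -0.34, 0.24 and 0.47 in the 3 WT mice. On the scale of the table, whose centring can add a constant between the genotypes, the mice overlapped at ZT 0 and every RE-RE mouse was higher at ZT 8, 12 and 16. The amplitude was 0.10 ± 0.12 in RE-RE and 1.36 ± 0.15 in WT, and the rhythm differed past the adjusted threshold in that fit (limma, adjusted p = 0.00137 over 14413 genes). The contrast was of the same size in the other mice of 26 weeks, 0.12 ± 0.12 in RE-RE and 1.39 ± 0.21 in WT (limma, adjusted p = 0.047). In the KO mice of 10 weeks, which carry Bmal1(stopFL/stopFL) and no Cre, the amplitude was 0.03 ± 0.07. In the Br-RE mice, which carry Syt10-Cre alone, it was 0.20 ± 0.08.

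Clock proteins act through short DNA motifs, and the promoters of 3 repressor genes are shown here because they carry the E-box or D-box of the loop just described. They are the 250 bases before the start of each gene, read 5′ to 3′ on the minus strand from RefSeq on GRCm38.p6. Capitals mark the E-box CACGTG in Ciart (chr3:95882229-95882478) and Cry1 (chr10:85185055-85185304) and the D-box TTATGTAA in Per3 (chr4:151044666-151044915).
Ciart: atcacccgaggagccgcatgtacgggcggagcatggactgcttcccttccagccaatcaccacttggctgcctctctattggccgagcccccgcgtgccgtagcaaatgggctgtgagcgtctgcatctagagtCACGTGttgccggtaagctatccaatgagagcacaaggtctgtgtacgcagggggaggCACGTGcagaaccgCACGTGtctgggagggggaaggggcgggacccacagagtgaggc
Cry1: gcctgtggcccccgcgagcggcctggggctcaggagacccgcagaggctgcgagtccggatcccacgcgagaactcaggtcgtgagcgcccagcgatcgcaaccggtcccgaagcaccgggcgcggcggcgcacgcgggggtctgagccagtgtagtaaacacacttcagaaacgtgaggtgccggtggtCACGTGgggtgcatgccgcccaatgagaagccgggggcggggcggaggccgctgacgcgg
Per3: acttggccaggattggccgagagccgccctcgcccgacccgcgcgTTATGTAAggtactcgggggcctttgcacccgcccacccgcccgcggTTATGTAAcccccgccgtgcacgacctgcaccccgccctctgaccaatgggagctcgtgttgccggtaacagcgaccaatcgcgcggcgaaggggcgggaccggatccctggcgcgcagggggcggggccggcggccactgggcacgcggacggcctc
Ciart holds 3 E-boxes, whose first bases lie 116, 58 and 44 bases before the start, Cry1 holds 1 at 60 bases and Per3 holds 2 D-boxes at 205 and 158 bases. Both strands of all 32851 promoters of this length were searched. The E-box was found in 6.02% of them, the D-box TTATGTAA or TTACATAA in 0.819% and the core AGGTCA or TGACCT of the RORE, the motif of NR1D receptors, in 14%. Of the 19 clock genes 16 had promoters in the table, 21 in all. An E-box was present in 5 of these genes, a D-box in 1 and the RORE core in 4. A gene was counted if any of its promoters matched, whereas the shares above are per promoter, so the counts and shares are not alike. A match describes these letters and is not evidence of binding.

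Among the repressors, Per2 (chr1:91415982-91459324, GRCm38) had the smallest p of the clock genes tested. Its 4 RE-RE mice had -0.83, -0.23, -0.20 and 0.19 log2 FPKM at ZT 0, against -2.34, -1.86 and -0.38 in the 3 WT mice. At ZT 16 the RE-RE mice had 0.86, 1.25, 1.43 and 1.86, against 1.77, 2.12, 2.22 and 2.23 in WT. The RE-RE profile was thus higher at the trough and lower on the evening side of the peak on average, with an overlap of the mice at both times. The amplitude was 1.03 ± 0.10 in RE-RE and 1.73 ± 0.14 in WT, a 4.15-fold and an 11-fold swing. Along the 26 week peak time the difference was -0.70 (95% interval -1.05 to -0.35), and the rhythm differed at an unadjusted p of 1.36e-04 and an adjusted p of 0.181 (limma). At 26 weeks the amplitudes were 0.93 ± 0.14 in RE-RE and 1.48 ± 0.14 in WT (limma, unadjusted p = 0.00957, adjusted p = 0.999), a difference of the same direction in other mice.

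Per3, whose D-boxes are shown above, had an amplitude of 0.76 ± 0.12 in RE-RE and 1.32 ± 0.17 in WT. Its mice at ZT 4 had 1.55, 1.89, 2.05 and 2.1 log2 FPKM in RE-RE and 0.75, 1.26, 1.27 and 1.44 in WT. At ZT 20 they had 0.94, 1.44, 1.61 and 1.76 in RE-RE and -0.05, 0.41, 0.65 and 0.88 in WT. On the scale of the table, on which the Per3 level was 0.60 higher in RE-RE, every RE-RE mouse was higher at both of these times and the genotypes overlapped at the peak. Along the 26 week peak time the difference was -0.55 (95% interval -0.97 to -0.13, adjusted p = 1.0, limma). At 26 weeks the amplitudes were 0.71 ± 0.10 and 0.70 ± 0.10, so that the lower value in RE-RE was not seen there.

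Per1 had an amplitude of 1.03 ± 0.23 in RE-RE (adjusted p = 0.0857, limma) and 1.39 ± 0.13 in WT. The RE-RE mice at ZT 0 ranged from -0.11 to 2.98 log2 FPKM, against 0.18 to 1.71 in WT, so the RE-RE mice spread at least as widely at that time as the fitted rhythm swings. Cry1, with its E-box, had 0.26 ± 0.06 in RE-RE (adjusted p = 0.0556, limma) and 0.46 ± 0.07 in WT. At ZT 8, the trough in WT, the RE-RE mice had 2.15, 2.20, 2.23 and 2.26 log2 FPKM, against 1.75, 1.89, 1.95 and 2.07 in WT, without overlap on the scale of the table. Cry2 had 0.39 ± 0.10 in RE-RE and 0.37 ± 0.06 in WT, a difference along the axis of 0.01 (95% interval -0.25 to 0.26). Bhlhe41 and Bhlhe40, repressors that compete for E-boxes, had amplitudes of 0.48 ± 0.10 and 0.26 ± 0.11 in RE-RE and 0.35 ± 0.08 and 0.20 ± 0.11 in WT.

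Ciart, which represses the ARNTL pair and carries the 3 E-boxes above, was below the filter with a mean of -0.33 log2 FPKM. Its rhythm was called in both genotypes in the fit of all 14413 genes, with an amplitude of 1.56 ± 0.16 in RE-RE and 1.78 ± 0.23 in WT and peaks at ZT 9.3 and ZT 11.1. At ZT 16 the 4 RE-RE mice had -0.48, -0.36, -0.25 and 0.28 log2 FPKM, against 0.41, 0.93, 0.96 and 3.74 in WT. On the scale of the table every RE-RE mouse was lower at that time. The mean of Ciart on that scale was 0.33 in RE-RE and 0.63 in WT. Among the WT mice at ZT 16, 1 lay far above the others.

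Of the nuclear receptors, Nr1d1 had an amplitude of 1.32 ± 0.16 in RE-RE and 1.6 ± 0.16 in WT, and peaks at ZT 4.3 and ZT 5.2. Nr1d2 had 0.36 ± 0.07 in RE-RE and 0.54 ± 0.07 in WT. At ZT 4 Nr1d2 was at 4.83, 4.83, 4.93 and 5.07 log2 FPKM in RE-RE and at 4.58, 4.58, 4.66 and 4.73 in WT, and at ZT 12 the genotypes overlapped. The level of Nr1d2 as a whole was also higher in RE-RE, under the limit on levels given below. Rora had 0.17 ± 0.08 and 0.10 ± 0.06, with a rhythm called in neither genotype.

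Of the output factors, Dbp had the largest amplitude among the 16 clock genes in both genotypes, 1.43 ± 0.16 in RE-RE and 1.84 ± 0.15 in WT. Tef had 0.27 ± 0.06 in RE-RE (adjusted p = 0.1, limma) and 0.50 ± 0.05 in WT, a difference along the axis of -0.26 (95% interval -0.43 to -0.08, adjusted p = 0.788). At ZT 20 its RE-RE mice had 4.71, 4.92, 5.04 and 5.13 log2 FPKM, against 4.19, 4.50, 4.52 and 4.58 in WT. Every RE-RE mouse was higher there, and the level of Tef as a whole was 0.33 higher in RE-RE under the limit on levels given below. Nfil3, which represses D-box genes, had 0.76 ± 0.14 in RE-RE and 1.10 ± 0.15 in WT. At ZT 16 its RE-RE mice had 2.79, 3.05, 3.25 and 3.67 log2 FPKM, against 4.16, 4.20, 4.24 and 4.89 in WT. They did not overlap on the scale of the table. On that scale the level of Nfil3 as a whole was also lower in RE-RE, under the limit on levels given below. At 26 weeks the order was the other way round, 1.18 ± 0.15 in RE-RE and 0.64 ± 0.16 in WT. Hlf, below the filter, had 0.35 ± 0.07 in RE-RE and 0.75 ± 0.10 in WT, and was called in both genotypes (limma, adjusted p = 0.0463 and 3.36e-04, over 14413 genes).

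**Figure D2:**
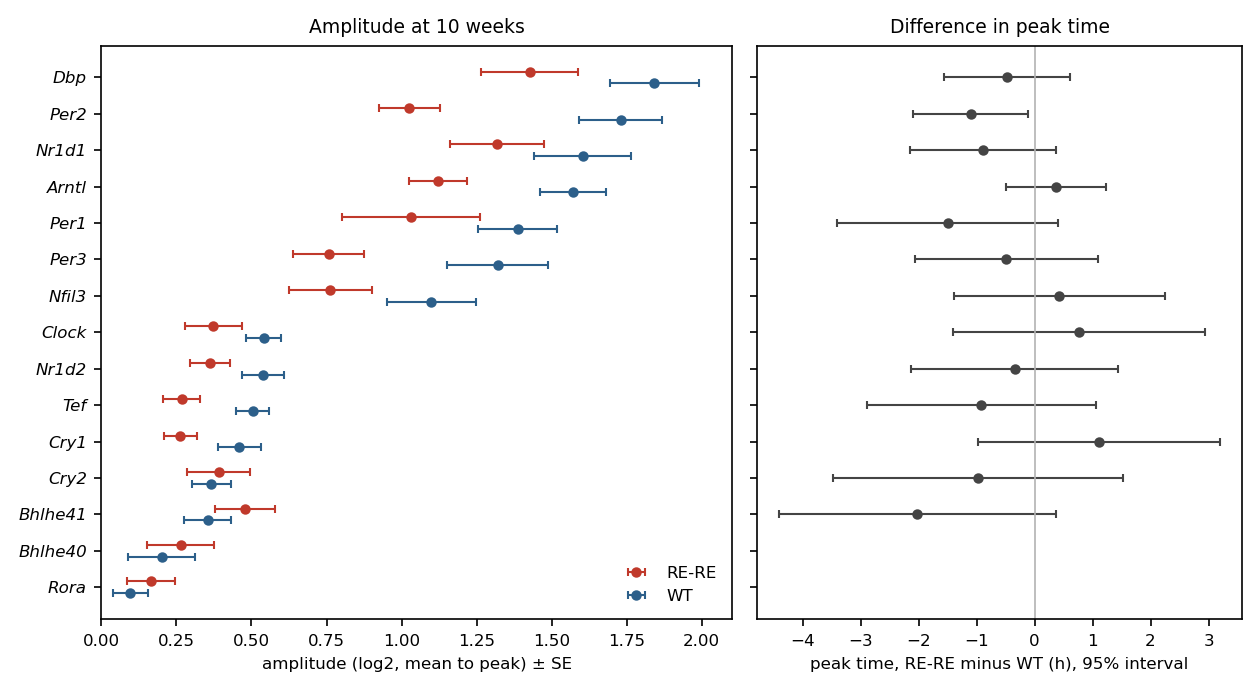
Fitted amplitude in log2 units (± SE) of 15 clock genes in RE-RE (red) and WT (blue) muscle at 10 weeks on the left, and peak time of RE-RE minus WT in h with its 95% interval for 13 of them on the right. Arntl, at 1.12 in RE-RE and 1.57 in WT, and Per2, at 1.03 and 1.73, stand lower in RE-RE, while Cry2, at 0.39 and 0.37, does not.

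Within the loop, Arntl and Clock peaked near ZT 0, Nr1d1 in the morning, Dbp and the Per genes in the late light phase or around its end and Cry1 and Nfil3 in the night in both genotypes. Peak times could be compared in 13 of the 16 clock genes, those with an amplitude of at least 3 standard errors in both. The 95% interval of the difference excluded 0 for 1 of them, Per2, which peaked at ZT 12.0 in RE-RE and ZT 13.1 in WT, 1.10 h earlier (-2.1 to -0.11 h), before any adjustment for the 13 intervals. For Per1 the difference was -1.50 h (-3.40 to 0.40 h), and for Dbp, at ZT 9.7 in RE-RE and ZT 10.2 in WT, it was -0.48 h (-1.56 to 0.61 h). Cry1 peaked at ZT 20.2 in RE-RE and ZT 19.1 in WT, a difference of 1.11 h (-0.98 to 3.20 h). With samples 4 h apart, shifts of this size were not resolved for single genes.

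The time shown by the clock genes was also read in each mouse from the pattern of the 26 week mice. It differed from the zeitgeber time by 0.01 ± 1.41 h in RE-RE and -0.50 ± 0.85 h in WT (SD, n = 24 and 23), where positive values are ahead. The RE-RE mice ranged from -2.63 to 2.86 h and the WT mice from -2.82 to 0.95 h. The strength of the pattern, 1 for the 26 week template, was 0.97 ± 0.29 in RE-RE and 1.28 ± 0.31 in WT, with ranges of 0.41 to 1.71 and 0.69 to 1.88. The means of the genotypes were about 1 SD apart and the ranges overlapped widely. At ZT 12 the RE-RE mice lay at 0.59 to 1.15 and the WT mice at 1.26 to 1.57, without overlap, while at ZT 4 they lay at 0.80 to 1.09 and 0.71 to 1.33.

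**Figure D3:**
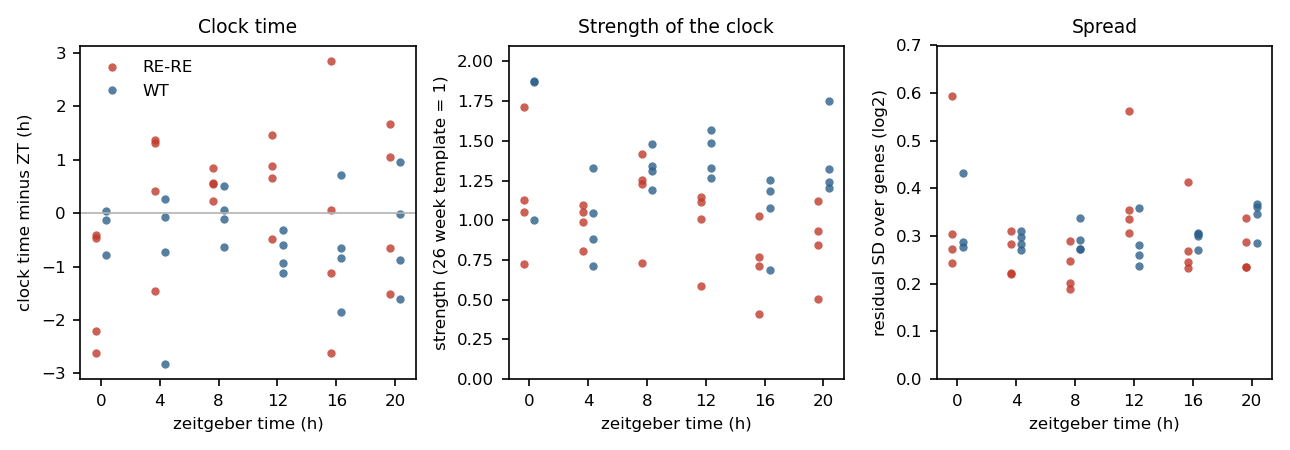
Each point is a mouse of 10 weeks, RE-RE in red and WT in blue, against zeitgeber time in h. The panels give the clock time minus ZT in h, the strength of the clock pattern (26 week template = 1) and the SD over genes of its residuals in log2, which is highest in RE-RE replicates 1 and 13 at 0.593 and 0.562.

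The wider set of rhythmic genes was chosen in the 26 week mice, where 381 genes had a shared rhythm of RE-RE and WT (limma, adjusted p under 0.05). At 10 weeks their mean amplitude along the 26 week peak time was 0.274 in RE-RE and 0.349 in WT, a ratio of 0.783 ± 0.081 (jackknife SE over the 47 libraries). In the 14 of them on the clock lists the means were 0.687 and 0.942, a ratio of 0.729 ± 0.075. The median difference was -0.06 ± 0.03, and 238 of the 381, or 62.5%, were lower in RE-RE, against 48.4% of all genes tested. At an unadjusted p under 0.05, 35 were lower and 6 higher, against 234 lower and 116 higher of all 9862 genes. The rhythm was called at 10 weeks in 46 of the 381 in RE-RE and 172 in WT, against 0.588% and 5.84% of all genes. Over all genes the calls were 58 in RE-RE and 576 in WT, and 228 and 499 without the 4 libraries that stood apart. Without the 4 libraries that stood apart the ratio was 0.847 and the median difference -0.03, and the clock ratio was 0.751. No p is given, since genes are not replicates.

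Divided by their 26 week peak, the 100 genes peaking between ZT 21 and 3 had a ratio of 0.739, the 89 between ZT 3 and 9 one of 0.87, the 110 between ZT 9 and 15 one of 0.784 and the 82 between ZT 15 and 21 one of 0.77. The lower mean amplitude in RE-RE was thus present in all 4 windows of peak time. The median peak time difference was -0.31 ± 0.48 h (jackknife SE), and 253 of the 381 genes peaked within 2 h of each other in the genotypes and 342 within 4 h. Of the 142 genes with an amplitude of at least 3 standard errors in both, 125 lay within 2 h, with a median difference of -0.22 h.

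**Figure D4:**
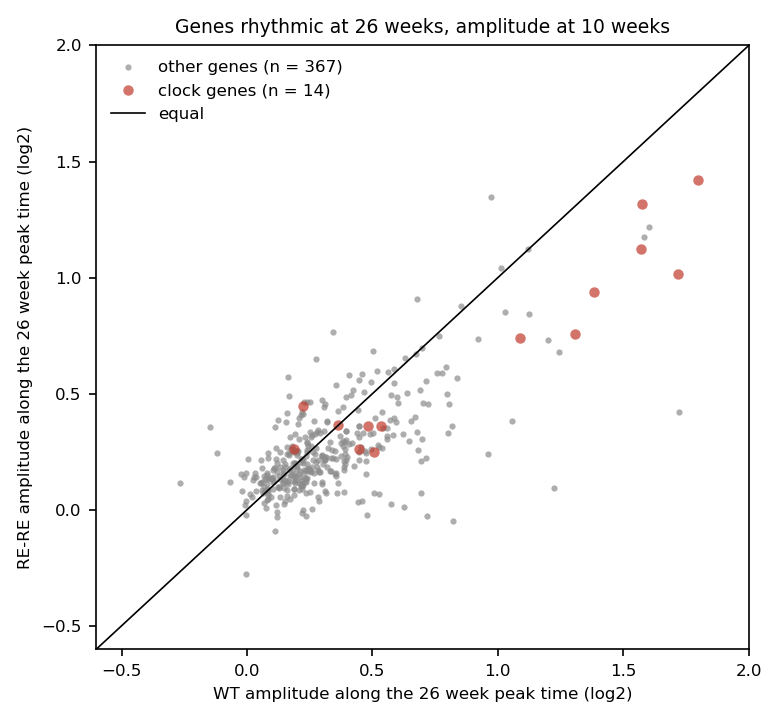
Amplitude at 10 weeks along the 26 week peak time, in log2 units, of the 381 genes rhythmic at 26 weeks, RE-RE on the vertical and WT on the horizontal axis. Red points are the 14 genes on the clock lists, grey points the others, and the line marks equal amplitudes, below which 238 genes lie.

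Of all 9862 genes, 46 had a called rhythm in both genotypes, against 58 in RE-RE and 576 in WT (limma, adjusted p under 0.05). Some of the genes below, among them Ypel2, were named for a small rhythm p in RE-RE, which favours large RE-RE amplitudes. Ypel2, the gene outside the lists with the smallest p for a rhythm in RE-RE, had an amplitude of 0.77 ± 0.09 in RE-RE and 0.78 ± 0.07 in WT, with peaks at ZT 21.3 and ZT 21.6. At ZT 8 its RE-RE mice had 0.50, 0.62, 0.74 and 1.0 log2 FPKM and its WT mice 0.66, 0.75, 0.90 and 1.02, and at ZT 0 they had 1.83, 2.21, 2.39 and 2.51 and 1.84, 2.04 and 2.40. The genotypes overlapped at both times. Slc16a9, a carrier of the monocarboxylate transporter family, had 0.91 ± 0.10 in RE-RE and 0.69 ± 0.12 in WT, and Tcap, the titin cap of the sarcomere, had 0.48 ± 0.07 and 0.44 ± 0.08. Adh1, an alcohol dehydrogenase, had 0.90 ± 0.15 in RE-RE and 0.90 ± 0.16 in WT. G0s2, an inhibitor of the fat lipase ATGL, had 1.22 ± 0.23 and 1.65 ± 0.26, and Mid1ip1, an activator of acetyl-CoA carboxylase, had 0.87 ± 0.15 and 1.03 ± 0.13. Cntfr, a receptor subunit for ciliary neurotrophic factor, had 0.41 ± 0.16 in RE-RE, against 1.07 ± 0.20 in WT. Rgs2, a regulator of G protein signalling, had 0.34 ± 0.12 in RE-RE, against 0.80 ± 0.10 in WT.

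On the list of clock-controlled outputs, 10 genes were tested, and the rhythm was called in 3 in RE-RE, Usp2, Coq10b and Pnpla3, and in 5 in WT, the same 3 with Tspan4 and Mylk4. Over all genes 0.588% were called in RE-RE and 5.84% in WT. Pnpla3, a lipase and acyltransferase of lipid droplets, had the largest amplitude of the list in RE-RE, 1.37 ± 0.15, against 0.98 ± 0.16 in WT. Its RE-RE mice had -1.09, -0.48, -0.35 and 0.33 log2 FPKM at ZT 8, against -0.65, -0.18, 0.23 and 0.34 in WT. They had 1.62, 2.41, 2.64 and 2.84 at ZT 0, against 0.52, 1.70 and 1.92 in WT. The difference along the axis was 0.38 (95% interval -0.09 to 0.84), in the opposite direction to most of the clock genes. Usp2, a deubiquitinase driven by the clock, had 0.65 ± 0.12 and 0.80 ± 0.08.

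Of the 17 glucocorticoid response genes 1 was called in RE-RE, Tsc22d3, and 7 in WT, Ddit4, Glul, Tsc22d3, Klf9, Pik3r1, Foxo1 and Cebpb, against 0.588% and 5.84% of all genes. The amplitude was lower in RE-RE in 15 of 17, or 88.2%, against 68.6% of all genes. Without the 4 libraries that stood apart it was lower in 12 of the 17, against 5740 of all 9862 genes. Tsc22d3, the glucocorticoid-induced leucine zipper, had 0.37 ± 0.07 in RE-RE and 0.59 ± 0.10 in WT. Cebpb, a transcription factor of the C/EBP family, had 0.29 ± 0.13 in RE-RE and 1.09 ± 0.14 in WT, with a difference along the axis of -0.72 (95% interval -1.11 to -0.33). The difference in rhythm had an unadjusted p under 0.05 (limma) for 3 of the 17, Cdkn1a, Cebpb and Mt2, against 3.46% of all genes. Of the 24 genes of fasting and fatty acid use 0 were called in RE-RE and 6 in WT, Cd36, Lipe, Plin5, Pdk4, Ucp3 and Mlycd. Pdk4, a kinase that shuts off pyruvate dehydrogenase, nevertheless had amplitudes of 1.3 ± 0.33 in RE-RE and 1.39 ± 0.30 in WT, and Ucp3, a mitochondrial carrier, 0.74 ± 0.21 and 0.84 ± 0.17. For these genes the calls differed while the amplitudes lay within their errors, and the interval of the difference along the axis for Pdk4 was -0.82 to 1.06. Of the 24 genes 0 had a shared rhythm called at 26 weeks, so their axis is less certain.

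Among the 28 genes of glucose uptake and use 1 was called in RE-RE, Pfkfb3, and 3 in WT, Pfkfb3, Insr and Ppp1r3c. Over all genes 0.588% were called in RE-RE and 5.84% in WT. Of 15 genes of amino acids and growth control 1 was called in RE-RE, Slc38a2, and 1 in WT, Slc1a5, and of 20 of protein breakdown and autophagy 0 and 3, among them Fbxo32 and Ulk1. Slc38a2 had an amplitude of 0.41 ± 0.08 in RE-RE and 0.61 ± 0.18 in WT, with peaks at ZT 20.9 and ZT 20.8. No difference in its rhythm was detected between the genotypes (limma, unadjusted p = 0.576). No gene was called in either genotype among 13 of temperature and heat shock, 16 of lipid synthesis and 11 immediate early genes (limma). At an unadjusted p under 0.05 these 3 lists held 2, 1 and 1 in RE-RE and 3, 4 and 3 in WT. Of all 9862 genes 649 in RE-RE and 2218 in WT were past that limit.

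Cells outside the fibres, for which the labels give no driver, were followed by their markers. As a background, a rhythm was called in 0.588% of all genes in RE-RE and 5.84% in WT. A difference in rhythm had an unadjusted p under 0.05 in 3.46% (limma). Of 11 endothelial and mural markers 0 were called in RE-RE and 2 in WT, Cldn5, a tight junction protein, and Kdr, the VEGF receptor. Cldn5 had an amplitude of 0.28 ± 0.15 in RE-RE and 0.69 ± 0.13 in WT, and Kdr 0.14 ± 0.13 and 0.57 ± 0.14. The difference in rhythm had an unadjusted p under 0.05 for 3 of the 11, Cldn5, Kdr and Pecam1, and along the axis Cldn5 and Kdr were lower in RE-RE and Pecam1 higher. Of the 11 only Cldn5 had a shared rhythm called at 26 weeks, so the axis of Kdr and Pecam1 is less certain. Of the 5 blood markers, genes of haemoglobin and haem synthesis, 0 were called in either genotype, and 4 had an unadjusted p under 0.05 for a difference, with Alas2 peaking at ZT 14.8 in RE-RE and ZT 5.4 in WT. The haemoglobin genes are near-identical copies, among which reads could be split. Of 14 muscle fibre markers 0 were called in RE-RE and 1 in WT, Ckm, and of 2 satellite cell markers 0 and 1, Sdc4. Of 4 tendon markers 0 were called in either genotype, and 1 had an unadjusted p under 0.05 for a difference. None of the macrophage and lymphoid (5 tested), fibroblast (6), nerve and Schwann (2) or adipocyte (1) markers was called or had such a p.

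Genome-wide, the residual spread per gene had a median of 0.263 log2 in RE-RE and 0.214 in WT and was larger in RE-RE in 67.6% of genes. Without RE-RE replicates 1 and 13 the medians were 0.205 and 0.214 and the share 46.6%, so that the order turned, and 144 genes rather than 58 were called rhythmic in RE-RE. Without RE-RE replicate 1 alone 140 were called. Without the 4 libraries that stood apart the counts were 228 in RE-RE and 499 in WT, so the number of calls in RE-RE depended on these libraries. Of the 58 genes 12 were not called in WT, among them Myod1, a muscle transcription factor, at 0.70 ± 0.12 in RE-RE and 0.51 ± 0.13 in WT. None of the 12 passed the adjusted test of a difference.

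The 10 genes with the smallest p for a difference in rhythm included Scand1, Spon2, Tspan4, Nrtn, Ephx1, Per2, Fbn1, Rflnb and Grk5. All 10 had the lower amplitude in RE-RE, as did 68.6% of all genes, and they were chosen by the difference itself. Their p values rank them and none passed adjustment (limma, adjusted p of 0.0777 for Scand1 and 0.127 for Spon2, Tspan4 and Nrtn). With a sex term per genotype 3 genes passed, among them Scand1 and Ephx1. Spon2 (chr5:33198184-33218455, GRCm38), which encodes the matrix protein spondin 2, had -0.40, 0.23, 1.51 and 1.76 log2 FPKM at ZT 12 in the RE-RE mice, against -3.47, -2.92, -2.65 and -1.93 in WT. At ZT 0 the RE-RE mice had 0.54, 1.55, 1.55 and 2.02 and the WT mice 0.69, 1.40 and 1.54. On the scale of the table, whose centring can add a constant between the genotypes, the mice overlapped at ZT 0. At ZT 12 every RE-RE mouse was above every WT mouse on that scale, and every WT value was below 1 FPKM. The amplitude was 0.42 ± 0.18 in RE-RE and 1.75 ± 0.20 in WT. Under the alternatives run it ranged from 0.26 to 0.53 in RE-RE and from 0.68 to 1.83 in WT. The difference along the 26 week peak time ranged from -1.46 to -0.37.

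Tspan4 (chr7:141475240-141493427, GRCm38), a tetraspanin of the cell membrane, had 1.73, 1.84, 1.91 and 1.95 log2 FPKM in the RE-RE mice at ZT 12, against 2.46, 2.65, 2.80 and 3.40 in WT. At ZT 20 the RE-RE mice had 1.25, 1.6, 1.66 and 1.68 and the WT mice 1.23, 1.81, 1.82 and 1.95. On the scale of the table the WT peak at ZT 12 stood clear of all RE-RE mice, and at ZT 20 the genotypes overlapped. The amplitude was 0.14 ± 0.06 in RE-RE and 0.57 ± 0.09 in WT. Ephx1, a microsomal epoxide hydrolase, had 0.12 ± 0.05 and 0.45 ± 0.07, Fbn1, the microfibril protein fibrillin 1, 0.14 ± 0.14 and 0.81 ± 0.10, and Grk5, a kinase of G protein-coupled receptors, 0.11 ± 0.09 and 0.50 ± 0.07.

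In the independent mice of 26 weeks, 1 gene passed the adjusted test of a difference in rhythm, 0.0101% of those tested, and that gene was Tspan4 (limma, adjusted p = 0.036), with amplitudes of 0.07 ± 0.06 in RE-RE and 0.57 ± 0.06 in WT. At an unadjusted p under 0.05 356 genes, or 3.61%, differed at 26 weeks. Of the 341 genes past that limit at 10 weeks 25, or 7.33%, were also past it at 26 weeks, 20 of them in the same direction. Of the 10 genes with the smallest p at 10 weeks 4 were past it, Tspan4, Spon2, Ephx1 and Per2, all in the same direction. Spon2 had 0.62 ± 0.19 in RE-RE and 1.52 ± 0.30 in WT at 26 weeks, and Ephx1 0.01 ± 0.08 and 0.29 ± 0.07.

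Scand1, which encodes a small nuclear protein with a SCAN domain, had 3.17, 3.47, 3.53 and 3.72 log2 FPKM in the RE-RE mice at ZT 16, against 4.0, 4.16, 4.26 and 4.31 in WT. At ZT 0 the RE-RE mice had 3.45, 3.51, 3.56 and 3.68, against 2.2, 2.55 and 2.83 in WT. At both times the genotypes did not overlap, in opposite directions. The amplitude of Scand1 was 0.11 ± 0.06 in RE-RE and 0.77 ± 0.12 in WT. In the KO mice, in which the cassette silences Bmal1, it was 0.73 ± 0.19, and in the Br-RE mice 0.13 ± 0.05. A rhythm of Scand1 was called in neither (limma, adjusted p = 0.772 in KO and 0.149 in Br-RE). Spon2 and Tspan4 had 0.19 ± 0.20 and 0.08 ± 0.07 in KO mice, also without a called rhythm. The libraries of WT and KO mice and those of RE-RE and Br-RE mice belong to different sets of the deposited table, as described with the levels below, and the part of these sets in the rhythm of Scand1 was not tested. At 26 weeks its amplitude was 0.32 ± 0.16 in RE-RE and 0.34 ± 0.11 in WT.

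Cys1 (chr12:24665833-24681813, GRCm38), which encodes the ciliary protein cystin 1, was below the filter and was named after its values were seen, because with Npas2 it was 1 of the 2 genes past the adjusted test of a difference in rhythm in the fit of all 14413 genes. At ZT 16 its RE-RE mice had -1.08, -1.06, -0.81 and -0.52 log2 FPKM, against 0.79, 0.93, 1.31 and 1.39 in WT. At ZT 4 the RE-RE mice had -1.53, -1.48, -1.0 and -0.77 and the WT mice -1.49, -1.45, -0.90 and -0.89. On the scale of the table the genotypes overlapped at ZT 4 and did not overlap at ZT 16. The amplitude was 0.04 ± 0.12 in RE-RE and 1.2 ± 0.12 in WT (limma, adjusted p = 0.00137). At 26 weeks it was 0.17 ± 0.18 in RE-RE and 1.04 ± 0.10 in WT (limma, unadjusted p = 4.70e-05, adjusted p = 0.226).

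**Figure D5:**
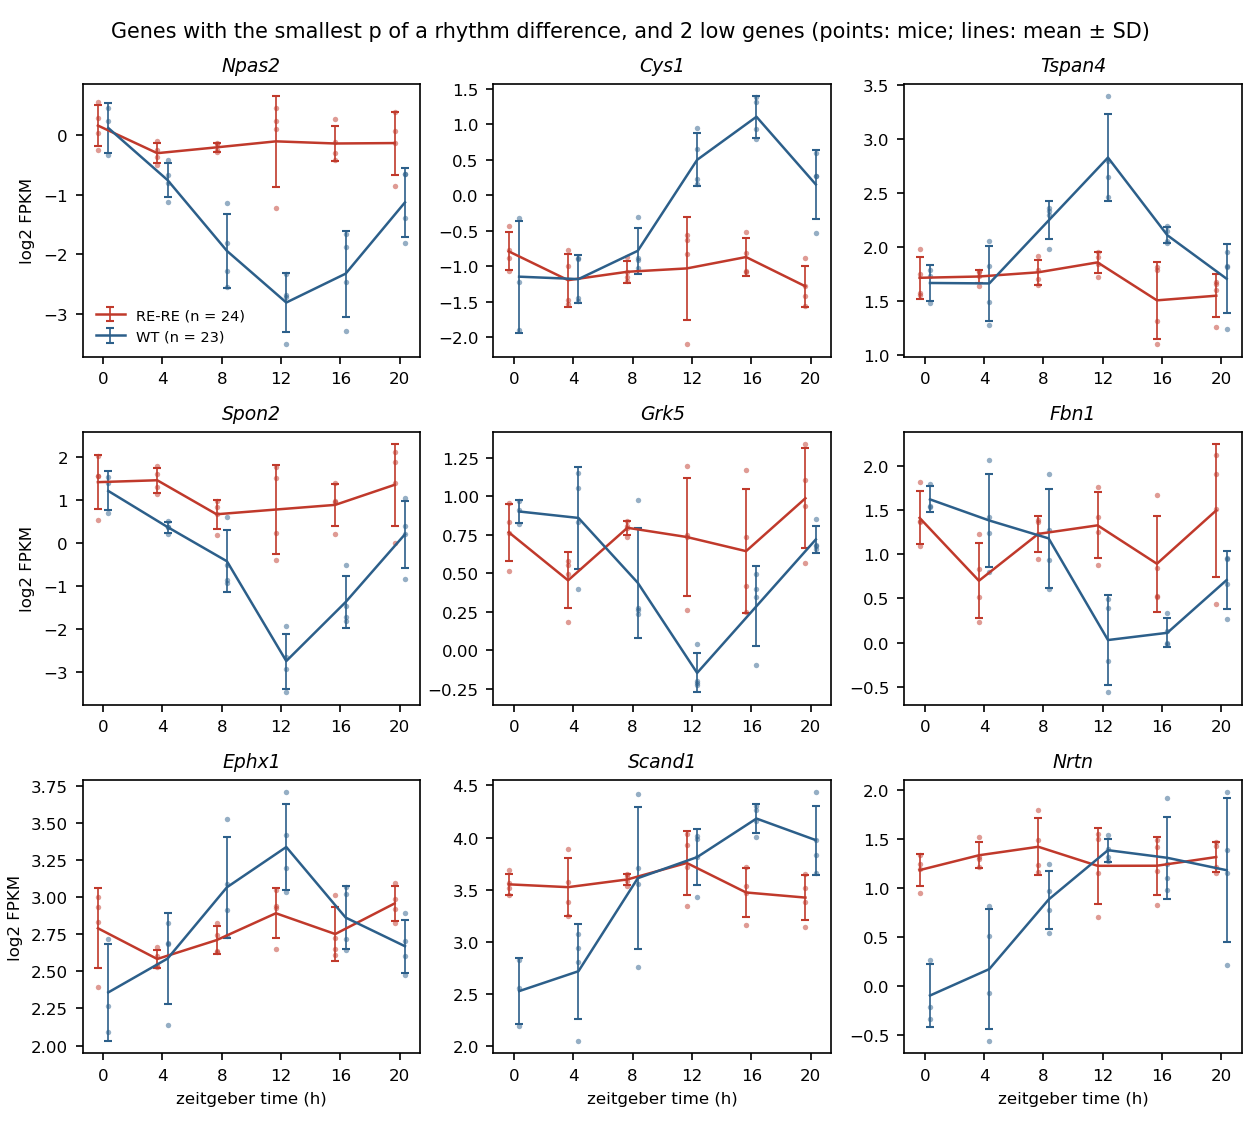
Log2 FPKM of 7 genes among those with the smallest p for a difference in rhythm, and of Npas2 and Cys1 from below the filter, in RE-RE (red, n = 24) and WT (blue, n = 23) muscle at 10 weeks, against zeitgeber time in h, with points for mice and lines for the mean ± SD. At ZT 12 the Spon2 values of RE-RE mice reach from -0.40 to 1.76 and those of WT mice from -3.47 to -1.93.

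Across the 26 week peak time, on an axis 6 h later, a value differs when the peak moves and also when a rhythm that peaks off the 26 week time is larger in 1 genotype. On this axis 0 genes passed adjustment (limma), and 325, or 3.3%, had an unadjusted p under 0.05. The smallest p belonged to Scand1 (adjusted p = 0.0552), Nrtn, which encodes the growth factor neurturin, Rhbdl1, Sfxn5 and Ppfibp1. The amplitudes of Nrtn and Rhbdl1 were 0.06 ± 0.07 and 0.06 ± 0.09 in RE-RE, against 0.73 ± 0.13 and 0.76 ± 0.13 in WT. In KO mice they were 0.45 ± 0.11 and 0.74 ± 0.14, and in Br-RE mice 0.22 ± 0.10 and 0.14 ± 0.08. No rhythm of Nrtn or Rhbdl1 was called in KO mice (limma, adjusted p = 0.574 and 0.108) or in Br-RE mice. As for Scand1, the part of the library sets in this was not tested.

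Levels were compared last, since they partly reflect a step in the making of the table. In 3 sets of libraries, the 47 RE-RE and Br-RE libraries of 10 weeks, the 46 of 26 weeks and the 259 others, the female mean and the male mean of each gene coincided to within 1e-05. The mean of the 47 was also equal to that of the 71 WT, KO and Mu-RE (Hsa-Cre alone) libraries of 10 weeks in every gene, so that a change common to RE-RE and Br-RE would be removed. Added constants per gene leave amplitudes and peak times as they are. With this limit 207 genes, or 2.1%, were higher and 195, or 1.98%, lower in RE-RE (limma, adjusted p under 0.05), 402 in all. Without RE-RE replicates 1 and 13 there were 760, and without the 4 libraries that stood apart 1117.

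The 5 level differences with the smallest p were Ces1d, Ak4, Rflnb, Fmo2 and Sbk2. Ces1d, a carboxylesterase, ranged from 3.94 to 5.38 log2 FPKM with a median of 4.84 in RE-RE, against 2.18 to 4.01 with a median of 2.89 in WT. Ak4, a mitochondrial adenylate kinase, ranged from 0.04 to 1.96 with a median of 1.29 in RE-RE, against -0.65 to 0.59 with a median of 0.15 in WT. The ranges overlapped in both genes, and the RE-RE median lay above every WT mouse. The differences were 1.84 ± 0.13 for Ces1d, 1.27 ± 0.11 for Ak4 and 0.86 ± 0.09 for Rflnb, an actin regulator of the refilin family, and -0.91 ± 0.09 for Fmo2, a flavin monooxygenase, and -1.0 ± 0.11 for Sbk2 (SE, limma, adjusted p from 1.24e-14 to 4.82e-08). These 5 are given on the scale of the deposited table. Among the clock genes, Per3 was 0.60, Tef 0.33 and Nr1d2 0.28 higher and Nfil3 0.51 lower in RE-RE on that scale (limma, adjusted p = 0.00857, 2.72e-04, 0.0111 and 0.0396).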

How the data were processed

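Per the labels' protocols, RNA was extracted with Qiazol reagent and an miRNeasy kit, and read pairs of 150 bp were sequenced to an average of 25 mega-read pairs a sample. The submitters' processing notes name HISAT2 2.1.0 and featureCounts 1.6.2, FastQC 0.11.8 and Trim Galore 0.5.0, limma 3.44.1 and edgeR 3.30.0, and the build GRCm38. Of 360 samples sequenced the submitters excluded 8 for quality. The authors deposited FPKM on a log2 scale, and the floor of the table equals the log2 of 0.01, as if 0.01 FPKM had been added first. The centring described in the report was found in the values, and no source used here gives its method. Sequencing depth was recovered from the spacing of low values and the exon lengths. In the median library 95.8% of these values were within 0.1 of a whole number of reads. At the median depth and exon length 1 FPKM corresponds to 82.8 reads.

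Gene models came from a GENCODE M21 annotation. Genes with a mean of at least 0 over all libraries were fitted with a level, a 24 h cosine and sine and a term for sex, using limma 3.58.1 (trend and robust options) in R 4.3.3, with the package data.table, version 1.17.8. Rhythm was tested by an F test within each genotype and the difference by an F test in a joint fit, with Benjamini-Hochberg adjustment over all genes fitted. The peak axis of each gene came from the 26 week mice, and the difference along it and across it, 6 h later, was tested with limma's moderated variance, two-sided. Clock time and strength per mouse are the angle and length of its 16 clock genes projected on the 26 week pattern. Tables, sequences and plots were made with Python 3.11.15, pandas 2.3.3, numpy 2.4.6 and matplotlib 3.10.9. The scripts were tested on simulated data.

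The genes named are the clock genes kept, the 4 best ranked of each other list, the 10 smallest p for a rhythm in RE-RE and for a difference, the 5 smallest along and across, the 10 largest amplitudes at 26 weeks and 5 levels; Npas2, Ciart and Hlf were added as clock genes under the filter, and single marker or list genes and Myod1 after their values were seen. A few genes that the rule or a list names are not reported here. The comparison, its genes and lists were chosen with earlier results of these data known. Same-numbered RE-RE and WT mice did not deviate together (23 pairs, median r = 0.04, 5 over 0.1), so numbers do not pair mice. No 2 libraries were duplicates, with correlations of 0.914 to 0.991 within RE-RE and 0.914 to 0.983 within WT. The series text calls the replicates biological.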

Additional observations from a re-analysis of the deposited data

Results flagged for a closer look

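Within a genotype and time of 4 mice, 10 of 209 sets of values of clock genes had 1 mouse far from the other 3, where chance gives about 1 in 20. In RE-RE, Clock was high in 1 mouse at ZT 0, at 2.511 log2 FPKM with the nearest mouse at 1.705. Nr1d1 was low in 1 RE-RE mouse at ZT 0, at 2.616 with the nearest at 4.628, and Per2 in 1 RE-RE mouse at ZT 12, at 0.955 with the nearest at 2.008. In WT at ZT 4, 1 mouse was low in Bhlhe40, at 4.315 against 5.042 in the nearest. At that time 1 WT mouse was low in Dbp, at 1.885 against 3.47, and 1 in Tef, at 4.523 against 4.788. Whether these values came from the same mouse was not examined. Rora was low in 1 WT mouse at ZT 12, at 2.436 against 2.834. Nfil3 was high in 1 WT mouse at ZT 16, at 4.895 against 4.236. Ciart was high in 1 WT mouse at ZT 16, at 3.739 against 0.957, and low in 1 at ZT 20, at -1.435 against -1.185.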

How the results depend on the processing

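The differences along the 26 week peak of Ephx1 and Btg2, past adjustment in neither fit, turned to 0.37 and -0.033 with peaks from RE-RE mice of 26 weeks alone, against -0.39 and 0.65. No other difference along the peak or in level that was recomputed turned under the alternatives run, and precision is limited by 4 mice a time. Counts are given in the order of rhythm difference, amplitude along and difference across the 26 week peak, where the main counts are 0. Adding 1 FPKM before the log gave 1 along. Without the filter there were 2 and 4. A sex term per genotype gave 3, 5 and 1. Adding 12 h terms gave 3 and treating time as a factor 4 differences. Using array weights gave 30, 35 and 6, none of them a clock gene, with 640 rhythmic genes in RE-RE and 937 in WT, a median peak time difference of -0.82 h and 1586 level differences. A gene length slope gave 97 rhythmic genes in RE-RE and 1 across. Peaks and genes from WT mice of 26 weeks alone gave 1 along and a median amplitude difference of -0.11, and from RE-RE mice alone -0.13. Leaving out RE-RE replicates 1 and 13, chosen after seeing the data, gave 144 rhythmic genes in RE-RE and 760 levels. Leaving out RE-RE 1, 13 and 19 and WT 1, also chosen so, gave 228, 1 difference (Rasl11a), 8 along and 1117 levels. The cause was not tested.

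Leaving out 1 mouse in turn gave 40 to 140 rhythmic genes in RE-RE, the highest without RE-RE 1, and 419 to 596 in WT. It gave 0 to 2 rhythm differences (above 0 without WT 10, 13, 16 or 23), 0 to 5 along (without RE-RE 13 or 18, or WT 2, 4, 6, 10, 12 or 13) and 0 to 2 across (without RE-RE 8 or 13, or WT 8, 10, 12, 16, 23 or 24). The median amplitude difference ran from -0.07 to -0.04, the median peak time difference from -0.40 to -0.11 h and the levels from 328 to 512, against 402. The replicate block, although numbers do not pair the mice, gave 0, 0 and 0 with 351 levels; of the 23 pairs 1 correlated best with its own number.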

Other observations

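In genes of temperature and heat shock the RE-RE mice lay between -0.11 and 0.14 log2 of their fitted rhythm, whereas the WT mice lay between -0.42 and 1.12. The highest was WT replicate 1, at ZT 0, and the next was WT replicate 19, at ZT 16, at 0.34.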
